A study of Mus musculus with 8 samples.

Results

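The genes of the AP-1 factors Jun, Junb, Jund, Fos, Fosb, Fosl1, Fosl2, Atf3 and Batf were examined for called ChIP-seq intervals of myogenin and of p300 in differentiating C2C12 myoblasts. An interval was assigned to a gene when it touched the gene body of the GENCODE annotation of mm9 or the 50 kb on either side of it. Of the 22367 protein-coding genes of that annotation these are 9, and 104 of the 43759 intervals in the 4 lists lay in their windows. C2C12 is an established mouse myoblast line, labelled as strain C3H, that withdraws from the cell cycle and fuses into myotubes when serum is lowered. All cells were in differentiation medium with horse serum for 24 h. The control cells (Ctl) received no bexarotene, and the treated cells (Bex) received 50 nM bexarotene, an agonist selective for the retinoid X receptor, from the start of differentiation. Myogenin and p300 were each profiled in 1 library per condition, so no test between conditions was possible, no p-value is given, and the spread between cultures is unknown. The lists hold the position of each called interval and no tag count or score. They therefore say nothing of the strength of binding, and the depth of each single library is not given in the sources used here.

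AP-1 is a family of dimers of basic leucine zipper proteins. Jun proteins pair with each other or with Fos, Atf and Batf partners, whereas Fos proteins need a Jun partner, and the dimers bind TGACTCA or, for many Jun and Atf pairs, TGACGTCA. Most of these genes are immediate early genes that respond to serum and stress within minutes, and in myoblasts AP-1 activity is known chiefly from proliferation, where Jun can oppose MyoD. Myogenin is the helix-loop-helix factor of terminal muscle differentiation and binds E-boxes, of which CAGCTG and CACCTG were searched here. The coactivator p300 is a histone acetyltransferase without sequence preference of its own that is brought to promoters and enhancers by DNA-bound factors.

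Sequences from mm9 are given for the regions with the AP-1 site TGACTCA that were called for the same factor in both conditions. Regions with the site that were called in at least 3 lists are included as well. These regions carry the motif of the genes' own products beside the genes. Each is read 5′ to 3′ on the strand of the gene, and capitals mark TGACTCA or its complement TGAGTCA. Next to Jun lie chr4:94765046-94765205 and chr4:94767523-94767682 on the minus strand, both called for p300 in Ctl and Bex. Upstream of Junb lies chr8:87509526-87509685 on the minus strand, called for p300 in both conditions and for myogenin in Bex, which holds 3 sites. Upstream of Jund lies chr8:73206754-73206913 on the plus strand, called for myogenin in both conditions. Downstream of Fos lies chr12:86860624-86860783 on the plus strand, called for p300 in both conditions, with 2 sites. Downstream of Fosb, in intron 1 of Vasp, lies chr7:19856009-19856168 read on the minus strand, called for myogenin in both conditions. Upstream of Fosl1 lies chr19:5429973-5430132 on the plus strand, called for p300 in both conditions. A myogenin interval of Ctl covers the end of this window but does not reach the marked site. Just upstream of the Fosl2 start lies chr5:32438150-32438309 on the plus strand, called for p300 in both conditions, where capitals also mark TGACG.
Jun 46.2 kb upstream: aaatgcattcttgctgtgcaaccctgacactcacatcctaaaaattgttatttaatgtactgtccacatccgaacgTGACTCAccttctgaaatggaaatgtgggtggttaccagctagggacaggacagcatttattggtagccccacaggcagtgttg
Jun 48.6 kb upstream: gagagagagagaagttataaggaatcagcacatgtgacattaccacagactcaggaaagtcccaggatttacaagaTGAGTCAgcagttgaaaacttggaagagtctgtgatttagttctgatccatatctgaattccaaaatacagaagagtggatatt
Junb 7.0 kb upstream: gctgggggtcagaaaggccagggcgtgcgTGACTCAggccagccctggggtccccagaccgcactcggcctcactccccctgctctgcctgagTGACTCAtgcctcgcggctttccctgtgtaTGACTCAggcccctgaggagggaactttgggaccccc
Jund 14.9 kb upstream: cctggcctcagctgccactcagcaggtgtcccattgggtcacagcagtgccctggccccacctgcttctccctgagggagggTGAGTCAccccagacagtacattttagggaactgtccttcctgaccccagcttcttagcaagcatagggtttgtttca
Fos 45.9 kb downstream: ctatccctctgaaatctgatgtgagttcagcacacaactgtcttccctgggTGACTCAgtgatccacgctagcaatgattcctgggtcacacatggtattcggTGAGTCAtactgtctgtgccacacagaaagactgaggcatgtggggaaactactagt
Fosb 39.3 kb downstream: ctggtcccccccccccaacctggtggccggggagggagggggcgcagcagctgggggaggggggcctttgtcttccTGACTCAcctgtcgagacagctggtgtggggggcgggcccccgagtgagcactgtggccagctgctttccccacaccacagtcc
Fosl1 17.7 kb upstream: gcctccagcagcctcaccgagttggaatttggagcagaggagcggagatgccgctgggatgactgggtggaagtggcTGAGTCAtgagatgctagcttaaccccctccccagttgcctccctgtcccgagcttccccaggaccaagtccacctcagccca
Fosl2 promoter: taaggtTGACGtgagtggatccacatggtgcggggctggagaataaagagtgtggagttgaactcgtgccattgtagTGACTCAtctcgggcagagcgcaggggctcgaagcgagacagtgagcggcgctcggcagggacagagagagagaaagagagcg

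The p300 intervals at the transcription start sites (TSS) of Junb, Fos and Atf3 are shown for contrast, because none of them holds TGACTCA. The windows are chr8:87502618-87502777 on the minus strand, chr12:86814322-86814480 on the plus strand and chr1:193007220-193007379 on the minus strand. Capitals mark TGACG and CAGCTG in Junb, an E-box in Fos (CACCTG read on the other strand), and in Atf3 the complement of GGGCGG, which Sp1 binds, and a match to the MEF2 consensus.
Junb start: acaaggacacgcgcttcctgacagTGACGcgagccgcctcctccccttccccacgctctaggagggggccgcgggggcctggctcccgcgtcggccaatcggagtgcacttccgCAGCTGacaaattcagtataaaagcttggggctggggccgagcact
Fos start: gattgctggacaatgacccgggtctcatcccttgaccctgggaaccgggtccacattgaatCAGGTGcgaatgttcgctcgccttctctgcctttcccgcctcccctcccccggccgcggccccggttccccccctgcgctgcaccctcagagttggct
Atf3 start: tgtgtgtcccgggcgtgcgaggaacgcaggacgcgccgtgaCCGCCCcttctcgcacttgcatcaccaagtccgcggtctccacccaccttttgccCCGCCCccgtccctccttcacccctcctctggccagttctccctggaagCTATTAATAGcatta

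The control list of p300 held 22051 intervals and the bexarotene list 9154, whereas the myogenin lists held 5912 and 6642. As a check of the muscle label, 8 of 9 muscle marker genes had at least 1 myogenin interval within 50 kb in either condition and Ckm had none, against 1 of 8 marker genes of other cell types. Myog itself had 4 myogenin intervals in each condition. The p300 list was 0.415 times as long in Bex as in Ctl, so that p300 counts of single genes in Ctl and Bex do not compare like with like.

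Around the AP-1 factor genes 21 myogenin intervals were called in Ctl and 25 in Bex, and 38 p300 intervals were called in Ctl and 20 in Bex. Counting only intervals nearest to a TSS of these genes gave 7, 9, 21 and 14 in the same order. Without the smallest intervals of each list the counts were 6, 10, 24 and 14. In each of the 4 lists 7 of the 9 genes had at least 1 interval. Over all protein-coding genes the share with at least 1 interval was 32.3% for myogenin in Ctl, 32.9% for myogenin in Bex, 53.8% for p300 in Ctl and 35.2% for p300 in Bex. The mean number of p300 intervals per gene was 4.22 in Ctl and 2.22 in Bex, beside 1.58 and 0.653 over all genes. For myogenin the mean was 2.33 in Ctl and 2.78 in Bex, beside 0.663 and 0.664. All 9 genes are short, with bodies of at most 22419 bp, and among the 13299 genes up to that length the means were lower still, at 1.13 and 0.461 for p300 and 0.623 and 0.572 for myogenin, Ctl first. The gene set thus had more intervals of both factors per gene than the annotation as a whole, in both conditions. Intervals of p300 in Bex were 0.526 times as many as in Ctl, compared with 0.415 for the whole lists, and myogenin intervals were 1.19 times as many, compared with 1.12.

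**Figure D1:**
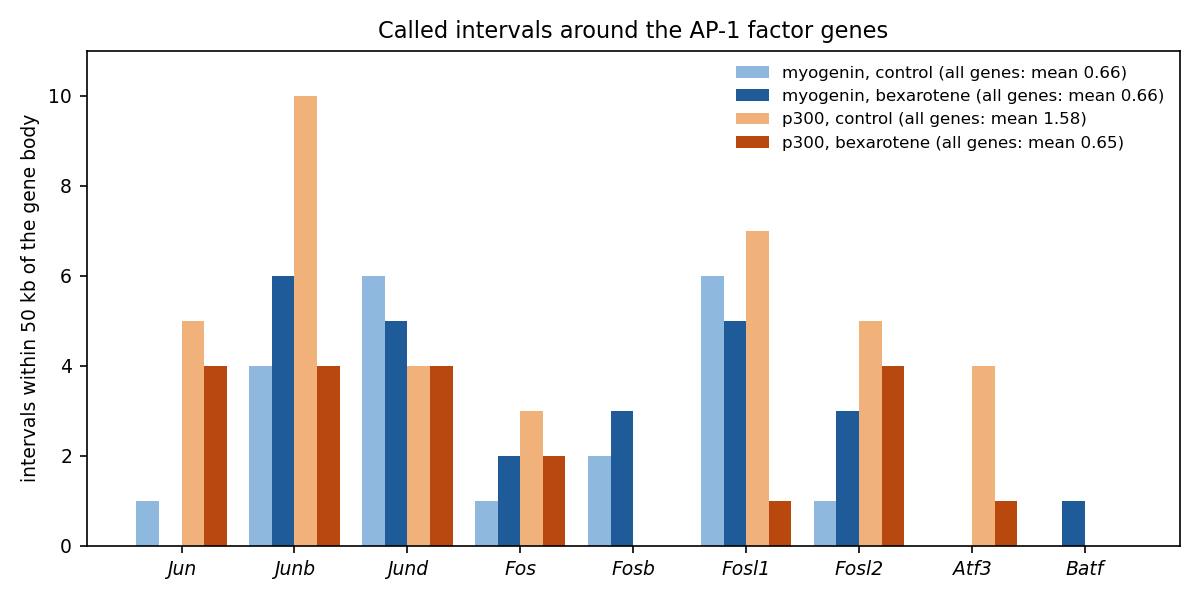
Number of called intervals (vertical axis) within 50 kb of each gene body, with 1 bar for each of the 4 lists and the mean over all protein-coding genes in the key. Junb had the most p300 intervals in Ctl (10), Fosb and Batf had none of p300, and Atf3 had none of myogenin.

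Junb, a Jun protein that is often a weaker activator than Jun and restrains proliferation in many cells, had the most intervals of the 9 genes, with 24 over the 4 lists. It is on chromosome 8 at 87500811 to 87502617 (minus strand). There were 10 p300 intervals in Ctl and 4 in Bex, and 1.71% of all genes had at least 10 in Ctl and 3.54% at least 4 in Bex. Of the 10 in Ctl, 7 were unique to control and 3 were shared. The shared ones lay 7.0 kb and 1.55 kb upstream of the TSS and 2.32 kb downstream of it, past the 3′ end of this single-exon gene. The interval over the TSS itself, chr8:87502458-87502834, was called only in Ctl, and the nearest p300 interval of Bex was 1181 bp away. The Bex list had in turn an interval of 158 bp in the 3′ UTR that the control list lacked.

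Myogenin was called 4 times around Junb in Ctl and 6 times in Bex, and only 1 region, 11.4 kb upstream and next to the start of Hook2, was called in both. The 6 intervals of Bex all had the smallest length of their list, 168 bp, and none held CAGCTG or CACCTG within 100 bp of the center. In Ctl the intervals 2.61 kb downstream of the TSS and 17.1 kb upstream held 3 and 5 E-box matches. The region 7.0 kb upstream, whose sequence with 3 AP-1 sites is printed above, had coincident intervals of p300 in both conditions, chr8:87509469-87509763, and a myogenin interval in Bex, chr8:87509602-87509769. The nearest myogenin interval of Ctl to that p300 region was 4162 bp away. Another AP-1 site 3.7 kb upstream lay under p300 in Ctl and under myogenin in Bex, with intervals at chr8:87506231-87506459 and chr8:87506282-87506449. At both places a myogenin interval was called at an AP-1 site in Bex and not in Ctl.

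The neighbourhood of Junb is dense in p300 intervals and in genes. Within 1 Mb of its TSS there were 67 p300 intervals in Ctl and 42 in Bex, against medians of 19 and 7 over all genes, and 0.349% and 0.0671% of genes had as many. Its window also holds 8 other protein-coding genes, among them Prdx2, Rnaseh2a and Hook2, and 6 of the 10 p300 intervals of Ctl had Junb as the gene with the nearest TSS. The part of this density in the count at Junb was not tested. Without Junb the mean number per gene was 3.50 p300 intervals in Ctl, 2.00 p300 intervals in Bex, 2.12 myogenin intervals in Ctl and 2.38 in Bex, all still above the means over all genes.

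Jun, the founding member of the family and the strongest activator among the Jun proteins, had 5 p300 intervals in Ctl and 4 in Bex and nearly no myogenin. The gene is on chromosome 4 at 94715725 to 94718913 (minus strand), and no other protein-coding gene lies in its window. A single myogenin interval of 172 bp was called in Ctl, 3.45 kb past the TSS and just beyond the 3′ end, and none in Bex. The p300 intervals formed a group near the start and a group far upstream. Near the start a shared interval lay 1.16 kb upstream, and Bex alone had an interval over the 5′ UTR, chr4:94718707-94718922, whose gap to the nearest interval of Ctl was 996 bp. Far upstream the intervals at 46.2 kb and 48.6 kb were shared, a further one at 49.4 kb was unique to control, and all 3 held TGACTCA. The control interval at the opposite edge of the window, 50.6 kb downstream, held 2 such sites. None of the 10 intervals at Jun held CAGCTG or CACCTG within 100 bp of the center, and other E-box letters were not searched. Within 100 bp of the center, each p300 interval of Jun beyond 10 kb thus had an AP-1 site and none of the nearer ones did, although at 46.2 kb the site lies just outside the shorter interval called in Bex.

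Jund, the Jun protein that is expressed most constantly in resting cells, had more myogenin than p300 intervals. It is on chromosome 8 from 73221638 to 73224515 on the plus strand and has 2 annotated starts, to the nearer of which distances are given. Myogenin was called 6 times in Ctl and 5 times in Bex, counts that 1.48% and 2.08% of genes reached, and p300 was called 4 times in each condition. The window holds 4 other genes, and in each list 1 interval had Jund as the gene with the nearest TSS. Within 1 Mb there were 28 myogenin intervals in Ctl and 24 in Bex, against a median of 6 over all genes, and the part of this density in the counts was not tested. Myogenin intervals lay within 1 kb of a start of this gene in both conditions, but at different positions, chr8:73223241-73223412 in the coding exon in Ctl and chr8:73222135-73222302 in the 5′ UTR in Bex. The p300 intervals at the start likewise did not overlap, with a gap of 252 bp between chr8:73222407-73222565 in Ctl and chr8:73222818-73223037 in Bex. Both factors were thus called within 1 kb of the starts in both conditions with no interval shared, and all of these but the p300 interval of Bex had the smallest length of their list. Farther on, 1.78 kb from a start and past the 3′ end, a p300 interval was shared, chr8:73224512-73224755 in Ctl. The sole region of all 9 genes that was called in all 4 lists was chr8:73234242-73234763, 11.6 kb downstream of Jund and outside any annotated protein-coding gene, with 2 CAGCTG, 1 CACCTG and no AP-1 site. The myogenin intervals 14.9 kb upstream, shared between conditions, held an AP-1 site and 3 E-box matches, and a p300 interval unique to control, with its own AP-1 site, lay 364 bp from the myogenin interval of Ctl.

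**Figure D2:**
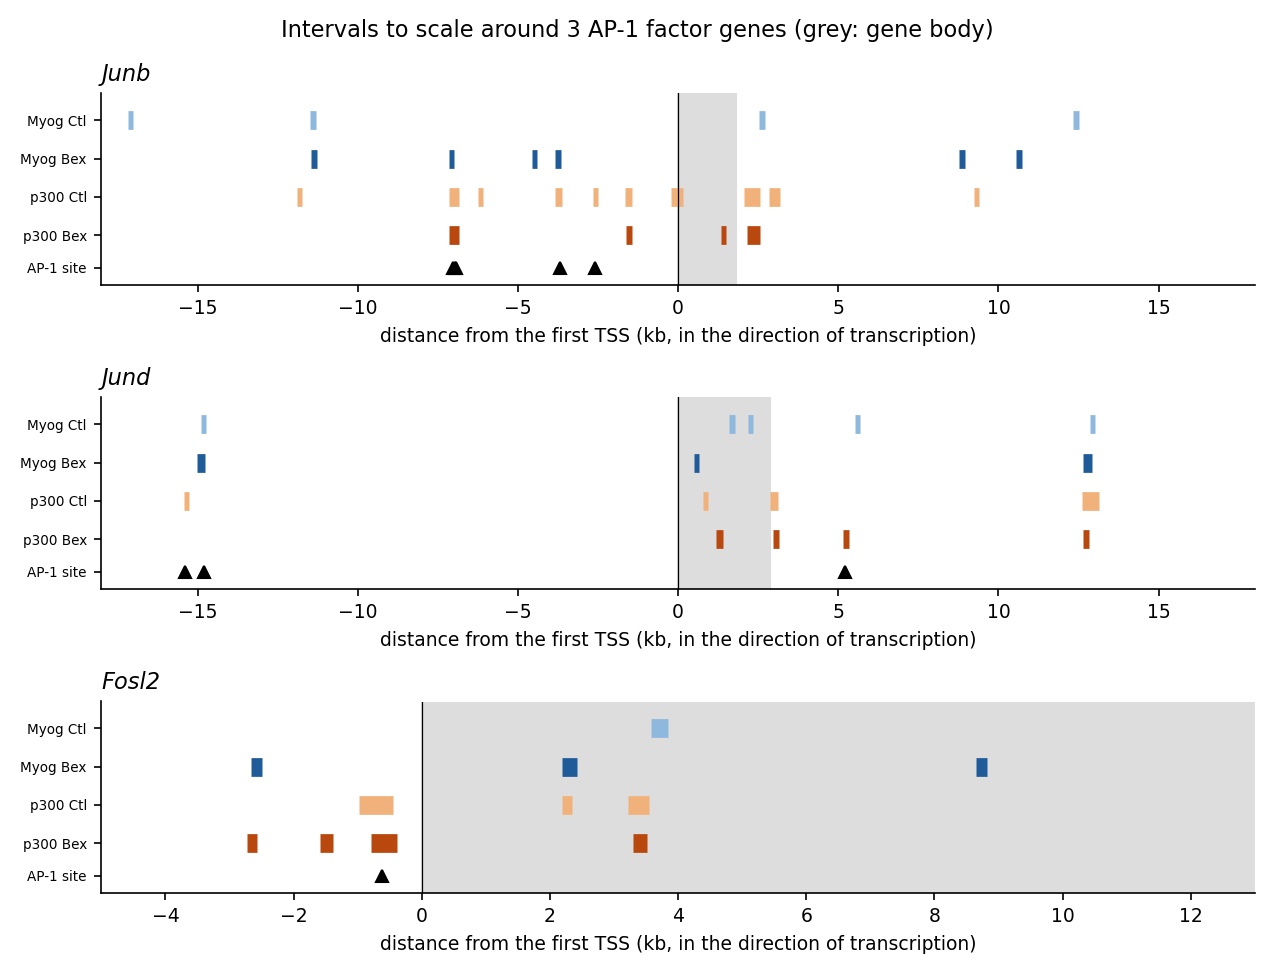
Called intervals to scale in the central part of the windows of Junb, Jund and Fosl2 by distance from the first TSS in kb, with 1 row for each list, AP-1 sites as triangles and the gene body in grey. Junb had 3 AP-1 sites under p300 of both conditions 7.0 kb upstream, and Jund had separate intervals of each condition near its starts. Fosl2 had 1 AP-1 site in the p300 region just upstream of its start.

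Fos, the serum-induced partner of Jun, had 3 p300 intervals in Ctl and 2 in Bex, and 1 myogenin interval in Ctl and 2 in Bex. It is on chromosome 12 from 86814840 to 86818223 on the plus strand with no other protein-coding gene in its window. The interval next to its start, chr12:86814322-86814480, had the smallest length of the control list, 159 bp, and the nearest p300 interval of Bex was 26135 bp away. The p300 region shared by both conditions lay 45.9 kb downstream and held 2 AP-1 sites. Myogenin was shared 24.3 kb downstream, with an interval of 264 bp in Ctl and 452 bp in Bex, and a p300 interval unique to bexarotene lay 1477 bp from the longer of them. No p300 interval at Fos overlapped a myogenin interval.

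Fosb, a relative of Fos that is induced with it, had no p300 interval in either condition, which was also true of Batf. It is on chromosome 7 at 19888070 to 19895394 (minus strand), among 7 other genes. The region within 1 Mb of its TSS was poor in p300, with 5 intervals in Ctl and 3 in Bex. Myogenin was called 2 times in Ctl and 3 times in Bex. The shared region was at chr7:19855949-19856219 in Ctl, 39.3 kb downstream, in intron 1 of Vasp and 1082 bp from the Vasp start. It held 4 E-box matches and an AP-1 site, and the nearest p300 interval of Ctl was 411643 bp away. The remaining myogenin intervals at Fosb, 1 of Ctl and 2 of Bex, all had the smallest length of their list.

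Fosl1, which encodes Fra-1, a Fos protein without a strong activation domain, had 7 p300 intervals in Ctl and 1 in Bex, the lowest ratio of Bex to Ctl among the 7 genes with p300. A count of 7 or more in Ctl was reached by 4.67% of genes, and a count of 1 or more in Bex by 35.2%. The gene is on chromosome 19 from 5447703 to 5455945 on the plus strand in a window with 10 other genes, and 1 of the 7 control intervals had Fosl1 as its nearest gene. A further 3 intervals of Ctl lay at the starts of Ccdc85b, Efemp2 and Mus81. The interval of Bex was shared, 17.7 kb upstream, chr19:5429832-5430137, and its AP-1 site is printed above. Myogenin was called 6 times in Ctl and 5 times in Bex. Within 1 Mb of the TSS there were 33 myogenin intervals in Ctl and 35 in Bex, against a median of 6 over all genes. For p300 there were 51 in Ctl and 21 in Bex, against medians of 19 and 7. The part of this density in the counts at Fosl1 was not tested. Of the 7 p300 intervals in Ctl, 3 overlapped a myogenin interval of Ctl, and in Bex the p300 interval overlapped none, with a gap of 285 bp. The regions 17.1 kb and 2.55 kb upstream had myogenin in both conditions and p300 in Ctl only. The other 4 p300 intervals unique to control overlapped no myogenin interval of Bex.

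Fosl2, which encodes Fra-2, had 5 p300 intervals in Ctl and 4 in Bex, and myogenin was called once in Ctl and 3 times in Bex. It is on chromosome 5 from 32438845 to 32460204 on the plus strand. A long p300 region lay just upstream of its start in both conditions, chr5:32437863-32438399 in Ctl and chr5:32438048-32438460 in Bex. With 537 bp and 413 bp these were the longest p300 intervals of their lists around the 9 genes. The AP-1 site in it lies inside both intervals, but in Ctl it crosses the edge of the 100 bp searched around the center and was not counted. A p300 interval in intron 1, 3.38 kb past the TSS, was also shared, and the myogenin interval of Ctl lay 28 bp from it. In Bex myogenin and p300 overlapped 2.6 kb upstream, chr5:32436185-32436352 and chr5:32436123-32436280, where neither factor was called in Ctl. The nearest TSS of both is that of Gm10463. No myogenin interval at Fosl2 was shared between conditions. Farther from the gene, 46.7 kb upstream and 55.8 kb downstream of the TSS, 2 p300 intervals unique to control each held an AP-1 site.

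Atf3, a stress-induced factor that represses as a homodimer, had p300 but no myogenin. It is on chromosome 1 at 192994175 to 193007219 (minus strand). Of 4 p300 intervals in Ctl, the one at the TSS was shared, chr1:193007048-193007452 in Ctl and chr1:193007199-193007474 in Bex, and it was the sole p300 interval in Bex. The other control intervals were 41.1 kb and 47.2 kb upstream and 42.1 kb downstream of the TSS and unique to control, and the first held an AP-1 site. The promoter thus had p300 in both conditions while no distal interval was called in Bex. Batf, a partner of Jun proteins best known from lymphocytes, is on chromosome 12 from 87027619 to 87050037 on the plus strand. It had 1 interval in all, a myogenin interval of Bex in its intron 2, chr12:87041195-87041362, with 2 E-box matches and the smallest length of its list.

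**Figure D3:**
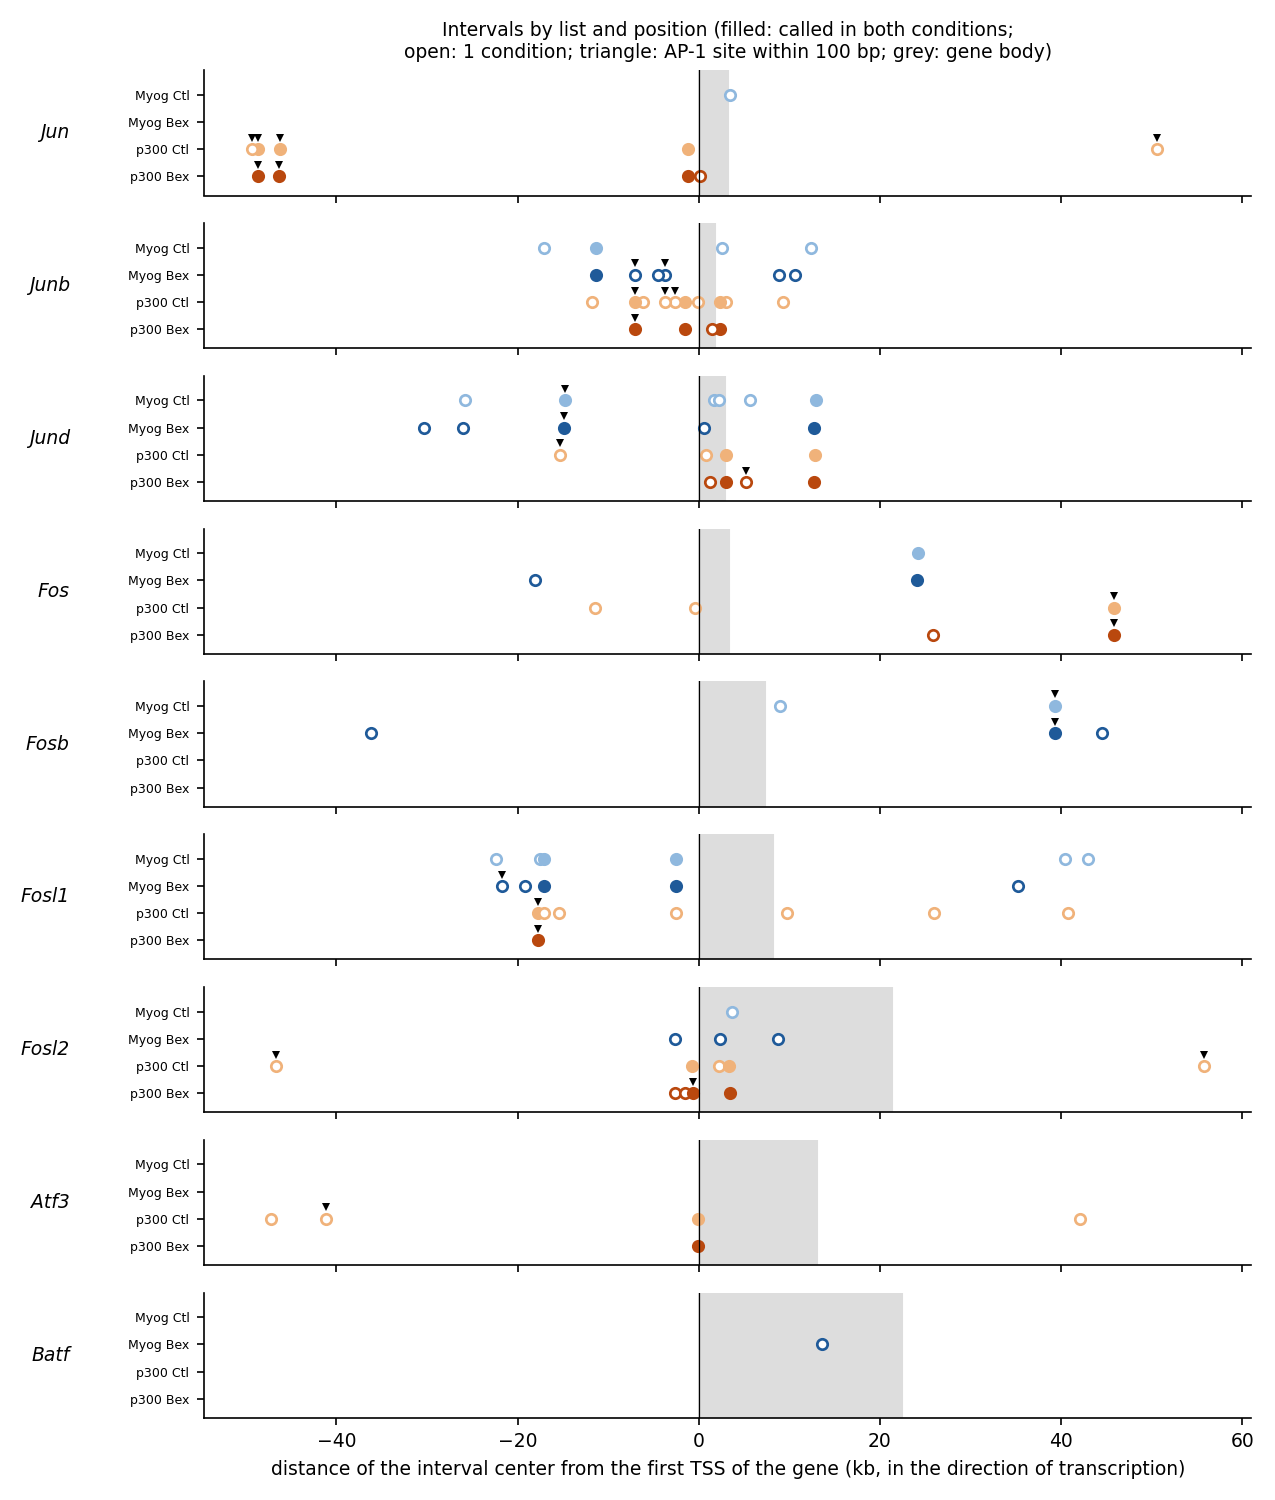
Position of each of the 104 intervals relative to the first TSS of its gene (kb, in the direction of transcription) by list, filled where the interval overlapped one of the other condition and open where it did not, with triangles for an AP-1 site within 100 bp. Filled p300 points within 1 kb of the start are seen at Atf3 and Fosl2, and the triangles of Jun, Fos and Atf3 all lie over 40 kb from the start.

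The overlap between conditions was compared with that of the lists. Of the 38 p300 intervals in Ctl, 25 were unique to control, 65.8% with a 95% Wilson interval of 49.9 to 78.8%, close to the 67.3% of the list. All such intervals cover counting error only. In Bex 7 of 20 p300 intervals were unique to bexarotene, 35.0% (18.1 to 56.7%), beside 20.3%. Of the myogenin intervals 14 of 21 were unique to control, 66.7% (45.4 to 82.8%) beside 49.4%, and 18 of 25 were unique to bexarotene, 72.0% (52.4 to 85.7%) beside 54.9%. Each of these list shares lay within the interval of the AP-1 genes. Short intervals made up most of the unique myogenin set, since 12 of 14 in Ctl and 14 of 18 in Bex had the smallest length of the list, against 3 of 7 and 1 of 7 of the shared intervals. For p300 14 of 25 unique and 0 of 13 shared intervals had that length in Ctl, and 3 of 7 and 3 of 13 in Bex. Over the lists the shares at the smallest length were 54.8% and 50.0% for myogenin and 34.3% and 48.9% for p300, Ctl first.

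Intervals of p300 lay at the starts of more of these genes than of genes in general. With the center within 1 kb of a start, p300 was called at 5 of the 9 genes in Ctl (Junb, Jund, Fos, Fosl2 and Atf3) and at 4 in Bex (Jun, Jund, Fosl2 and Atf3), against 10.6% and 5.23% of all genes and 7.78% and 3.74% of the genes no longer than the longest of the 9. The order of the conditions depended on the setting, as within 2 kb there were 8 intervals in Ctl and 9 in Bex, and without the smallest intervals 3 and 4. Myogenin was called at the start of Jund alone in each condition, against 6.05% and 3.73% of genes. The start of Fosl1, Fosb and Batf had neither factor within that distance. Counting the starts of neighbouring genes as well, 28.9% of p300 intervals in Ctl and 30.0% in Bex lay within 1 kb of a protein-coding TSS (17.0 to 44.8% and 14.5 to 51.9%), beside 11.0% and 12.4% of the lists. The windows were chosen around genes, and among the intervals within 50 kb of any gene up to the same length the shares were 21.4% and 24.3%, within the intervals of the AP-1 genes. The median distance of p300 intervals from the start of the AP-1 gene was 10.6 kb in Ctl and 2.50 kb in Bex, with 19 of 38 and 6 of 20 beyond 10 kb. No counterpart of this distance over the lists is given, and the p300 lists differ in length, so these medians do not compare like with like.

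Overlap of myogenin and p300 was compared with that of the lists. Of the p300 intervals 5 of 38 overlapped a myogenin interval in Ctl, 13.2% (5.75 to 27.3%) beside 8.79% in the list, and 3 of 20 in Bex, 15.0% (5.24 to 36.0%) beside 18.5%. The control overlaps were 3 at Fosl1, 1 at Junb and 1 at Jund, and those in Bex were 1 each at Junb, Jund and Fosl2. With only intervals nearest to a TSS of the AP-1 gene the share in Bex was 0 of 14. Of the myogenin intervals 5 of 21 in Ctl and 3 of 25 in Bex overlapped p300 (10.6 to 45.1% and 4.17 to 30.0%), beside 33.0% and 25.6%. All 4 list shares lay within the intervals of the AP-1 genes. When all 104 intervals were merged across lists they formed 75 regions, of which 53 were in 1 list, 16 in 2, 5 in 3 and 1 in all 4, and 9 held both factors.

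The AP-1 site TGACTCA, searched on either strand up to 100 bp from the interval center, occurred in 13 of 38 p300 intervals in Ctl, 34.2% (21.2 to 50.1%), and in 7 of 20 in Bex, 35.0% (18.1 to 56.7%). The lists had 27.9% and 27.1%, within those intervals. Among myogenin intervals it occurred in 2 of 21 in Ctl, 9.52% beside 10.5%, and in 5 of 25 in Bex, 20.0% (8.86 to 39.1%) beside 12.6%. In Ctl all 13 p300 intervals with the site lay over 1 kb from any TSS, 13 of 27 such intervals or 48.1%, beside 30.3% in the list, and 0 of the 11 nearer ones held it, beside 8.85%. In Bex it was in 6 of 14 intervals over 1 kb from a TSS, 42.9% beside 29.8%, and in 1 of 6 nearer ones, 16.7% beside 8.66%. The nearer one in Bex is just upstream of the Fosl2 start, where the overlapping control interval also holds the site, which crosses the edge of the window searched around its center. With windows of 10 kb around the genes the site was in 3 of 20 p300 intervals in Ctl and 3 of 15 in Bex, 15.0% and 20.0%, both below the list shares. The 13 were 4 at Jun, 3 at Junb, 2 at Fosl2 and 1 each at Jund, Fos, Fosl1 and Atf3. The site TGACGTCA was in none of the 104 intervals, and its share of the lists was 0.220% to 0.590%. A CArG box within 100 bp of the center was in 1 p300 interval of Bex, the shared one 1.53 kb upstream of Junb, beside 1.04% of its list. Another box lies in the shared p300 interval of Ctl 2.32 kb downstream of the Junb TSS, not wholly within 100 bp of its center. A match to the MEF2 consensus was in 2 p300 intervals of Ctl, both at Atf3, 5.26% (1.46 to 17.3%) beside 0.599%. The one at the Atf3 start also lies in the overlapping interval of Bex, more than 100 bp from its center.

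The 5 myogenin intervals of Bex with an AP-1 site were 2 at Junb and 1 each at Jund, Fosb and Fosl1. Those at Jund and Fosb were shared with Ctl and held E-boxes as well, and the one at Fosl1 was unique to bexarotene and also held E-boxes. An E-box (CAGCTG or CACCTG) was present in 12 of 21 myogenin intervals in Ctl, 57.1% (36.5 to 75.5%) beside 64.7%, and in 12 of 25 in Bex, 48.0% (30.0 to 66.5%), below the 76.4% of its list. The p300 intervals of Bex also had fewer E-boxes than their list, 15.0% (5.24 to 36.0%) beside 39.1%, whereas in Ctl the share was 26.3% (15.0 to 42.0%) beside 32.4%. The Sp1 motif GGGCGG was in 28.9% of p300 intervals in Ctl (17.0 to 44.8%) and 30.0% in Bex (14.5 to 51.9%), above the 9.63% and 11.0% of the lists. TGACG was in 21.1% of p300 intervals in Ctl (11.1 to 36.3%) beside 9.03%, and in 2 of 20 in Bex, the same share as in the list (10.0%). Among intervals within 50 kb of any gene up to the same length, the Sp1 share was 15.8% in Ctl and 18.2% in Bex, the latter within the interval of the AP-1 genes, the TGACG share was 10.9% in Ctl, and the E-box share was 71.2% for myogenin and 38.6% for p300 in Bex. The p300 intervals were also richer in G and C, with a median of 57.7% in Ctl and 60.2% in Bex beside 46.8% and 47.8% of the lists. For myogenin the medians were 55.7% in Ctl and 55.7% in Bex beside 51.2% and 50.7%. The part of base composition in these motif shares was not tested. The Runx motif TGTGGT was in 20.0% to 28.6% of the intervals, beside 25.7% to 32.8% of the lists. For 15 measures in each list, 60 shares were set beside those of the lists and 10 list shares fell outside the interval, without correction for their number. The AP-1 shares split by distance from a TSS were not among the 60 and carry no interval. Intervals of both conditions often cover the same bases, so these shares are not independent of each other.

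**Figure D4:**
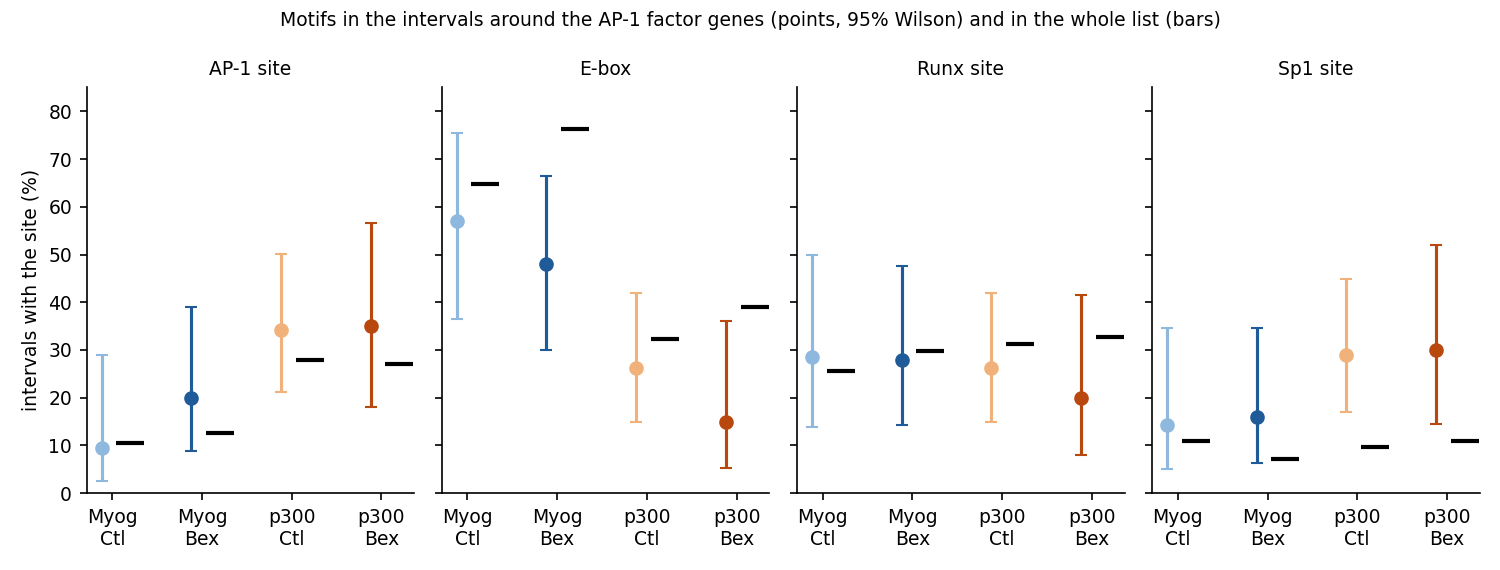
Share of intervals (%) with the AP-1, E-box, Runx or Sp1 site within 100 bp of the center, for the AP-1 factor genes (points with 95% Wilson intervals, counting error only) and for each whole list (black bars). The E-box bar of myogenin in Bex (76.4%) lies above the interval of the AP-1 genes, and the Sp1 bars of both p300 lists (9.63% and 11.0%) lie below it.

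The promoters of the 9 genes, taken from 250 bases before to 50 after the first start, held neither TGACTCA nor TGACGTCA nor a CArG box, the element that serum response factor binds. Over all 45993 promoters, searched on both strands over the same span, these were found in 4.27%, 2.13% and 1.35%. Each annotated start counts among those promoters, so a gene can enter more than once. The counts for the 9 genes use the first start only. The shorter TGACG, which is contained in TGACGTCA, was in the promoters of 6 genes (Junb, Fos, Fosb, Fosl1, Atf3 and Batf) and in 23.4% of all. A match to the MEF2 consensus was found 33 bases upstream of the Jun start and 15 bases upstream of the Atf3 start, and in 0.457% of all promoters. GGGCGG was in 7 of the 9 promoters, with 5 copies in Atf3, and in 44.3% of all. CAGCTG was in 4 promoters (Junb, Jund, Fos and Fosl1) beside 16.1% of all, and CACCTG in those of Fosb and Fosl1 beside 20.5%. A missing match means only that these letters do not occur in the window.

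Of 47 other genes of the AP-1 pathway, listed with earlier results of these data known, 37 had at least 1 p300 interval in Ctl, 21 in Bex, 22 a myogenin interval in Ctl and 26 in Bex, beside the shares of 53.8%, 35.2%, 32.3% and 32.9% over all genes. The immediate early companions, which are induced by serum together with Fos, had p300 in Ctl at 8 of 8 genes and in Bex at 7, with medians of 3.50 and 1.50 intervals. Myogenin was called at 6 of them in Ctl and 7 in Bex. Upstream kinases, phosphatases and factors had p300 at 10 of 15 genes in Ctl and 4 in Bex, and myogenin at 3 and 5. Other leucine zipper relatives had p300 at 13 of 15 genes in Ctl and 8 in Bex, and myogenin at 12 and 11. Of 9 known AP-1 targets 6 had p300 in Ctl and 2 in Bex, and 1 had myogenin in Ctl and 3 in Bex. The genes with most p300 intervals in Ctl were Cd44, a hyaluronan receptor, with 10 in Ctl and 0 in Bex over a long body of 90525 bp, Plau, the urokinase gene, with 10 and 7, and Nfe2l2, a leucine zipper regulator of antioxidant genes, with 8 and 1. Plau also had 3 myogenin intervals in Ctl and 8 in Bex.

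Likeness in pattern was measured for Junb by the summed difference of the interval counts over the 4 lists. No gene outside its window had the same counts, 6 genes differed by 2 in sum and 17 by up to 3. The first 5 by symbol were Arhgef10l, Fyn, Hoxc4, Nol9 and Tas1r1. Fyn had 4 myogenin intervals in Ctl, 6 in Bex, 8 p300 intervals in Ctl and 4 in Bex. Nol9 and Tas1r1, both on chromosome 4, had the same counts as each other.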

How the data were processed

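Myogenin and p300 chromatin from C2C12 cells after 24 h of differentiation, untreated or with bexarotene at 50 nM, was sequenced, and 4 of the 8 samples of the series have an interval list. The authors aligned the myogenin reads with BWA and the p300 reads with Bowtie to mm9, used Picard against duplicate reads and HOMER in its factor style for the peaks of each library. The deposited lists hold positions in base pairs and no counts, scores or input values. The fixed peak threshold could not be changed. Positions start from 0 in the lists and are printed from 1. The inputs, H3K27me3 and RNA-seq were not analysed here.

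An interval was shared when it overlapped one of the other condition by at least 1 bp. Distances were taken from the interval center to 45993 protein-coding TSS of GENCODE for mm9, and sequences from that genome, for which 0 intervals ran past a chromosome end. Motifs were counted on both strands. No test was possible with 1 library per group, and shares carry 95% Wilson intervals. All 9 genes are named, as are genes nearest to a described interval, 5 of the 6 genes closest to Junb in counts, by symbol, and the 3 pathway genes with most p300 intervals in Ctl. The members, gene lists and alternatives were chosen with earlier results of these data known. Alternatives changed the window, the assignment to genes, the overlap rule, the TSS distance, the motif window and the smallest interval length. Python 3.11.15, numpy 2.4.6, pandas 2.3.3, scipy 1.17.1, pysam 0.24.0 and matplotlib 3.10.9 were used. The overlap and motif functions were tested on simulated data in 8 steps of 400 items, and 8 were recovered.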

Additional observations from a re-analysis of the deposited data

How the results depend on the processing

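Of 122 values recomputed under an alternative, 97 stayed within 1.5 times the reported count or within the 95% interval of the reported share, which is wide, and 25 did not. With windows of 10 kb the counts were 9 (myogenin, Ctl), 12 (myogenin, Bex) and 20 (p300, Ctl), the AP-1 site was in 15.0% of p300 intervals in Ctl and in 0% of myogenin intervals in Ctl, and with 100 kb there were 32 p300 intervals in Bex. Keeping only intervals nearest to a TSS of the AP-1 gene gave 7, 9 and 21 intervals in the same order, an AP-1 site in 0% of myogenin intervals in Ctl and myogenin overlap in 0% of p300 intervals in Bex. Without the smallest intervals of each list the counts were 6, 10 and 24, the shares unique to one condition were 33.3% (myogenin, Ctl), 40.0% (myogenin, Bex) and 45.8% (p300, Ctl), and intervals at the start numbered 0, 0 and 3. Within 2 kb of the start there were 2 myogenin intervals in Ctl and 8 and 9 p300 intervals in Ctl and Bex, and within 500 bp 0 myogenin intervals in Bex. With reciprocal overlap of 50% the p300 intervals of Ctl that overlapped myogenin were 5.26%. Leaving out Junb and comparing with short genes were chosen after seeing the data, as were the shares among intervals around short genes. Without Junb the counts were 17, 19, 28 and 16 (myogenin, then p300, Ctl first), within that tolerance. No paired analysis was possible because each factor and condition has 1 library and no result comes from a test. The lists give no depth or strength, so an interval missing from a list does not show that the factor was absent.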

Other observations

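Batf and Jdp2, another leucine zipper factor that pairs with Jun and represses AP-1 sites, are neighbours on chromosome 12 and differed in their intervals. Jdp2 had 3 myogenin intervals in Ctl and 3 in Bex, and 7 p300 intervals in Ctl and 4 in Bex, whereas Batf had 0, 1, 0 and 0. Fos, on the other side of Jdp2, had 1, 2, 3 and 2. Windows of 50 kb around Jdp2 and Batf overlap in part, and Jdp2 has the longer body, 40462 bp against 22419 bp.

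Among the phosphatases and factors that act on the AP-1 genes, Elk3, which binds serum response elements with serum response factor, had 6 p300 intervals in Ctl and 3 in Bex, and Dusp1, a phosphatase of the kinases that activate Jun, had 5 and 2. Mapk9, Map2k1 and Elk1 had none in any of the 4 lists. Among the companions of Fos, Ier5 and Myc had 6 p300 intervals each in Ctl, with 1 and 3 in Bex. Nr4a1 had 4 myogenin intervals in Ctl and 0 in Bex, whereas Ier5 had 0 and 2 and Ier2 had 0 and 1. No test between conditions was possible for these counts.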
